A study of Drosophila melanogaster with 23 samples.

Results

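When Myb is missing, a set of transcripts that read low in the wing discs of control larvae reads high in the mutant. The set described here holds 35 such transcripts from 33 genes, out of 16637 transcripts that varied on the arrays. Its members were chosen by their own signals in this comparison: the mean over technical arrays had to be under 250 signal units in all 3 control replicates and at least 500 in all 3 mutant replicates. Of the tested transcripts, 53 met both limits, and 18 of these were left out by a list of 20 identifiers of transcripts treated apart. Since the rule used the contrast itself, the low control level, the high mutant level and the size of the difference are given as descriptions with no test.

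The discs came from male larvae of the third instar. *Myb* mutants were hemizygous for *Myb* MH107, listed as Df(1)MH107, w 1118, an X-linked deficiency made by P element mobilization. It takes away the start of *Myb* and also *alkB*, and counts as a null allele. The line had been outcrossed into the *yw* 67 laboratory stock (y1 w67c23) that served as control, so both genotypes carry a *white* mutation, and mutant males were picked as larvae without the GFP-marked balancer. Each genotype had 3 biological replicates on 12 mutant and 11 control arrays. The mutation is present in the whole animal, so the disc was not the only tissue without Myb. On these arrays the loss of *Myb* and that of *alkB* cannot be told apart. The study calls *alkB* non-essential and states that a *Myb* cDNA expressed throughout the animal rescues the observed mutant phenotypes. No rescued animals were on these arrays. Whether the biological replicates came from separate crosses or days is not stated, and p-values measure the spread between these samples.

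Flies have a single *Myb* gene, which encodes a transcription factor that binds DNA. The protein works inside a large complex with E2F, RB-family and LIN proteins that activates genes of mitosis in dividing cells and keeps other genes silent, among them genes that belong to the germ line or to differentiated cells. The wing disc is the larval epithelium that later forms the wing and the body wall of the thorax. It carries few neurons at this stage and has no germ cells, although blood cells and fragments of the fat body can be dissected with it.

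In addition to the arrays, the study had designed primers to measure chromatin marks by quantitative PCR at a number of genes. Primer pairs for 5 of the genes described here are shown, because they give the stretches at which these loci can be looked at again. Each pair is written 5′ to 3′, forward primer first, and no letter is marked.
*CG11668* forward (chromosome 3R): ccgcacaaacagatggattc
*CG11668* reverse (chromosome 3R): tttgcttacccaccgacg
*Ir68b* forward (chromosome 3L): agagatccaattccaaggcag
*Ir68b* reverse (chromosome 3L): gtagagcagaatgtccaggtg
*CG6927* forward (chromosome X): agttcaagatctatgcgctcc
*CG6927* reverse (chromosome X): gctcattggctagaaatatgtgg
*CG14695* forward (chromosome 3R): tcgggatttaggttcggattg
*CG14695* reverse (chromosome 3R): gatgagttggcacaggagtac
*Arpc3B* forward (chromosome X): ccagaagtagagtgactcatcg
*Arpc3B* reverse (chromosome X): cttctaccactacgtacccaag
The primers were not used for any value below.

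Values are signals from robust multichip analysis (RMA) on a linear scale, given for replicates 1, 2 and 3 of each genotype in that order. Differences are log2 changes, positive where the mutant read higher, with their standard error (SE). A signal cannot be compared between genes, since each rests on its own probes. Of the genes named in the genotype, *AlkB* (FBtr0074168) read 48.3, 50.9 and 46.6 in the mutant against 608, 758 and 643 in the control. The *Myb* transcript (FBtr0074169) read between 4586 and 4929 in the mutant and between 15119 and 16233 in the control. Detection flags were not analysed here, so a control signal near 100 was not read as an absent transcript.

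For each of the 35, mutant and control replicates lay apart, as the rule fixes. Over the members, the log2 change had a median of 3.30 and ran from 1.84 to 4.87, beside a median of -0.01 over all tested transcripts. Expressed as folds, 17 members differed by over 10-fold, 11 by 5- to 10-fold and 7 by less than 5-fold, and the lowest mutant replicate was 2.56 to 24.1 times the highest control replicate. For all 35 members every control array also read below every mutant array, but the rule used the means of these same arrays, so this adds no support. The highest control array of any member read 277 and the lowest mutant array 463.

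Of the 6259 tested transcripts whose 3 control means were all under 250, 0.847% reached the mutant floor. At an adjusted p under 0.001 and a signal of at least 500 in at least 1 replicate (limma, Benjamini-Hochberg over all 16637 transcripts), 0.787% of all tested transcripts were called higher in the mutant and 0.619% lower. Of the members, 31 were called higher, a count that the choice of members sets and from which nothing is read. With the replicate number as a block, 12 of the 35 were called, against 0.258% of all transcripts called higher. Without any one of mutant replicates 1, 2 and 3 or control replicates 1 and 3, the count was 13, 13, 18, 20 and 15. In those fits 45, 47, 68, 64 and 58 of all 16637 transcripts were called higher, beside 131 with all replicates. Without control replicate 2 the count was 33 members, beside 178 of all transcripts called higher. At an adjusted p under 0.05, all 35 were called, against 3.43% of all transcripts higher and 2.98% lower.

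**Figure D1:**
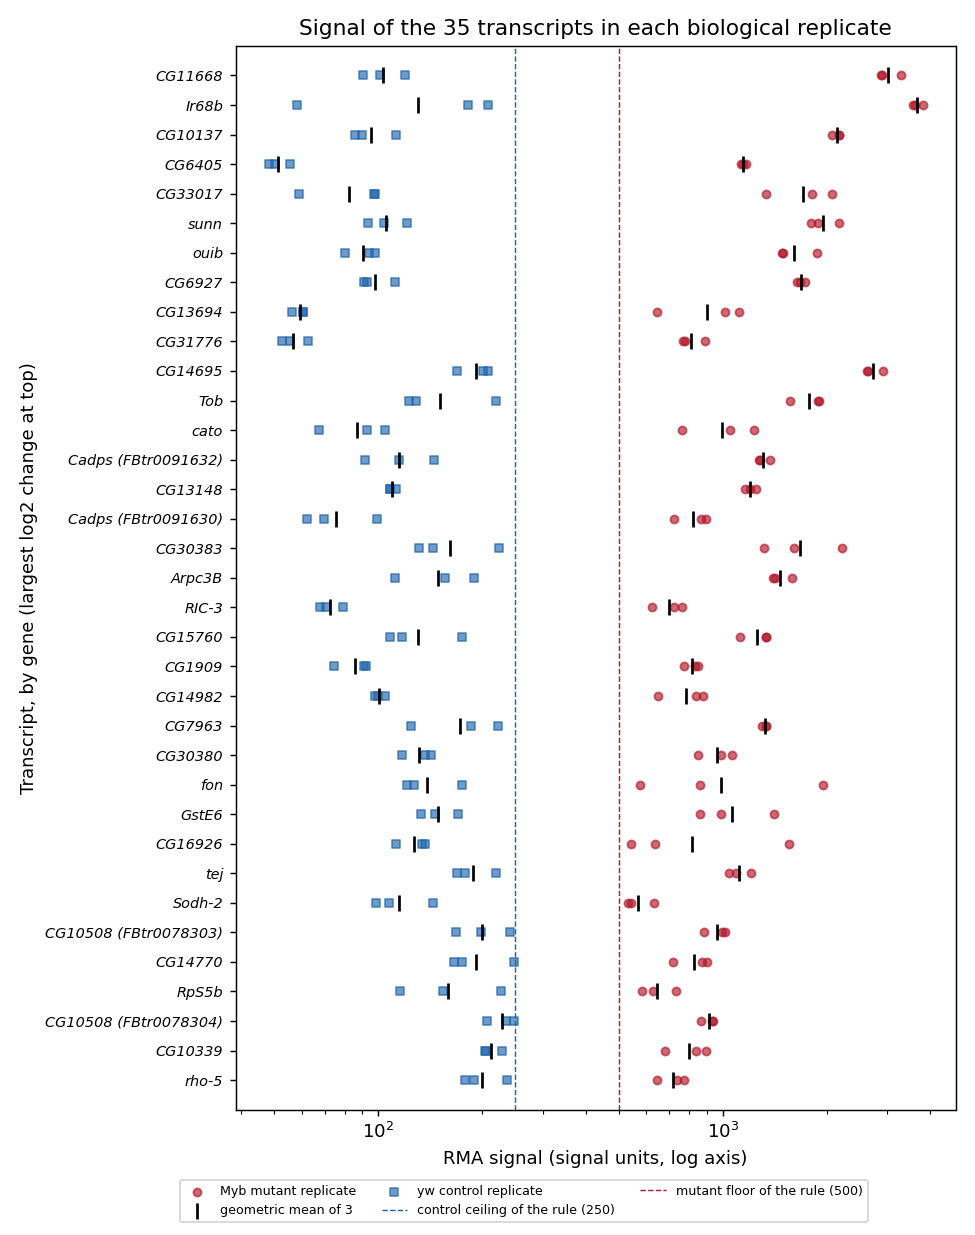
RMA signal (log axis, signal units) of each of the 35 transcripts, with red circles for the 3 *Myb* mutant replicates, blue squares for the 3 *yw* control replicates and black bars for the geometric mean of each genotype. All control replicates lie left of the ceiling of 250 and all mutant replicates right of the floor of 500, as the rule requires. *fon* and *CG16926* have the widest spread among mutant replicates, and *Ir68b* among control replicates.

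Several members are known from the germ line. *sunn* (FBtr0076116, chromosome 3L) encodes a relative of the cohesin subunit stromalin that holds sister chromatids together in meiosis. It read 1804, 1892 and 2168 in the mutant against 104, 121 and 93.3 in the control (log2 change of 4.21, SE 0.12). *tej* (FBtr0087562, 2R), a Tudor domain protein of the piRNA pathway, which silences transposons in germ cells, read 1039.8, 1088 and 1209 against 219.6, 179 and 169. Its log2 change of 2.56 (SE 0.12) was smaller, and both genes were highest in mutant replicate 3. *RpS5b* (FBtr0083006, 3R) encodes the second fly copy of a small-subunit ribosomal protein and is known for its expression in the ovary. With 584, 628 and 729.6 against 116, 228 and 154, it had a log2 change of 2.01 (SE 0.24), and its control replicates differed by 1.97 times. It was 1 of the 4 members not called.

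*ouib* (FBtr0081912, 3R) encodes a zinc finger factor of the prothoracic gland, where the molting hormone ecdysone is made. Its signals of 1488, 1489.9 and 1870.2 in mutant discs stood against 94.0, 80.1 and 98.2 in control discs (4.15, SE 0.12). The gene beside it, *nom*, encodes another zinc finger protein and read from 8012 to 8433 against 5997 to 6398. Its log2 change of 0.42 (SE 0.06, adjusted p = 0.009 in limma) did not pass the threshold, so the 2 adjacent genes stood at unlike distances from the control.

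Another 4 genes are known from neurons or sense organs. *Ir68b* (FBtr0076026, 3L) belongs to the ionotropic receptors, a family of chemosensory channels, and read 3801, 3618 and 3569 in the mutant. Its control replicates read 182, 58.2 and 208, so that replicate 2 stood 3.58-fold below the highest, the widest control range of any member. The log2 change was 4.81 (SE 0.47). Mutant replicates agreed far better, with a log2 SD of 0.05 against 1.01 in the control, and the gene was not called.

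*cato* (FBtr0087183, 2R), a relative of the proneural factor Atonal that acts in sensory neurons, read 1229, 1052 and 763 against 104, 67.5 and 92.6 (change of 3.52, SE 0.23). Proneural and eye factors listed with *cato* were not called. Of 4 that could be identified, 1 was higher and 3 were lower at an unadjusted p under 0.05 (limma). At an adjusted p under 0.05, *ey*, a regulator of eye identity, was higher (1.82, SE 0.28). At that level *eya* (-0.70, SE 0.10) and *ato* itself (-0.55, SE 0.12) were lower. Genes were identified only through the study's sheet, which ranks transcripts by this same comparison. Every identified gene, on any list or beside a member, passed at an unadjusted p under 0.05 (limma). Such counts follow from the naming, and nothing is read from them.

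*Cadps*, on chromosome 4, encodes a calcium-dependent activator of dense-core vesicle release, and was present with a pair of transcripts. FBtr0091632 read 1367, 1277 and 1273 against 91.5, 145 and 115 (change of 3.50, SE 0.16), and FBtr0091630 read 891, 863 and 720.4 against 62.2, 99.3 and 69.8 (change of 3.44, SE 0.19). Both were highest in control replicate 2 among controls and in mutant replicate 1 among mutants. *RIC-3* (FBtr0071528, 2R), a chaperone for nicotinic acetylcholine receptors, read 760.4, 722 and 623 against 70.7, 78.9 and 67.6, with a change of 3.28 (SE 0.10).

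Of 16 genes on the synapse and neurite list, 9 could be identified, namely *Cadps*, *RIC-3* and 7 others. None of these 7 was called at an adjusted p under 0.001. All 7 were higher at an adjusted p under 0.05 (limma), with a median log2 change of 1.45 that leans toward changed genes. The same count at an unadjusted p under 0.05 was set by the naming. Without mutant replicate 1, mutant replicate 2 or control replicate 1, 4 of the 7 passed at 0.05. The 7 genes, with changes from the fit on all replicates, included *sick* (2.85, SE 0.36), needed for axon growth, and *Snap25* (1.56, SE 0.14), a vesicle fusion protein. Another was *unc-13* (0.51, SE 0.10), which primes vesicles. No gene of the neuron and glia marker list could be identified. The sheet named 1062 of the 1066 transcripts called at an adjusted p under 0.05. Unidentified genes of either list were therefore almost all not called at that level, where the arrays held them, and their levels were not read.

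Enzymes and secreted proteins formed a further group. *GstE6* (FBtr0086674, 2R), a glutathione transferase, read 859, 985 and 1411 against 133, 171 and 146 (change of 2.83, SE 0.20). *Sodh-2* (FBtr0082324, 3R), a sorbitol dehydrogenase, read 530.3, 543 and 630.0 against 98.6, 145 and 108 (change of 2.30, SE 0.16) and had the lowest mutant replicate of the set. Both were highest in mutant replicate 3 and in control replicate 2. Of 6 other redox and detoxification genes, *GstE5* was called (1.18, SE 0.06), and *GstE1* (1.26, SE 0.17), *AOX1*, an aldehyde oxidase (2.62, SE 0.28), *Gnmt* (2.74, SE 0.24) and *Adh* (0.96, SE 0.19) passed at an adjusted p under 0.05. With the replicate block, none of the 6 was called, and *Adh* did not pass at 0.05 either (adjusted p = 0.0922).

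*fon* (FBtr0081222, 2L) encodes a protein of the hemolymph clot that the fat body secretes. It read 858, 576 and 1952 in the mutant against 127, 175 and 121 in the control (2.83, SE 0.44). Mutant replicate 3 was 3.39 times mutant replicate 2, the widest mutant range in the set. *CG16926* (FBtr0086499, 2R), a gene with no name beyond its identifier, had the next widest. It read 637, 542 and 1554 against 136, 134 and 113 (change of 2.68, SE 0.39), with replicate 3 at 2.87 times replicate 2. Neither was called, whereas the other 33 members had no mutant range above 1.73-fold.

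Fat body genes varied over the same samples as *fon*. Of 8 others on the fat body list, 0 were called at an adjusted p under 0.001, 7 were higher at an adjusted p under 0.05 and 8 at an unadjusted p under 0.05 (limma), and their median log2 change was 3.08. The unadjusted count was set by which genes the sheet named, and the median leans toward changed genes. With the replicate block, 3 of the 7 (*Lsp1beta*, *Lsp1gamma* and *Lsp2*) kept an adjusted p under 0.05, and without mutant replicate 1 it was 4 of the 8. Larval storage protein *Lsp2* read 14619, 10375 and 20929 in the mutant against 1562, 2939 and 993 in the control. Summed over the 8 genes, the signals were 66514, 48746 and 98317 in the mutant and 8156, 12916 and 4723 in the control. Mutant replicate 3 was thus the highest and mutant replicate 2 the lowest, in the order seen for *fon* and *CG16926*.

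In 6 of the 8, both genotypes kept the exact order of *fon* (mutant 3, 1, 2 and control 2, 1, 3 from highest to lowest), an order held by 2.29% of all tested transcripts and by no other member. *CG31776* was the only member besides *fon* and *CG16926* with the mutant order 3, 1, 2, which 12.8% of all transcripts showed. Replicate 3 over replicate 2 in the mutant was 1.76 to 3.24 for those 6 genes, whose order by itself sets a value above 1. For the remaining genes of the 8 it was 2.61 (*Fbp2*) and 1.23 (*Tsf1*). Among members it was 0.636 for *CG13694* and 1.43 for *GstE6*. In whole discs, a change in the number of cells of a type and a change in RNA per cell cannot be told apart. The part of fat body RNA in the values of *fon* and *CG16926* was not tested.

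**Figure D2:**
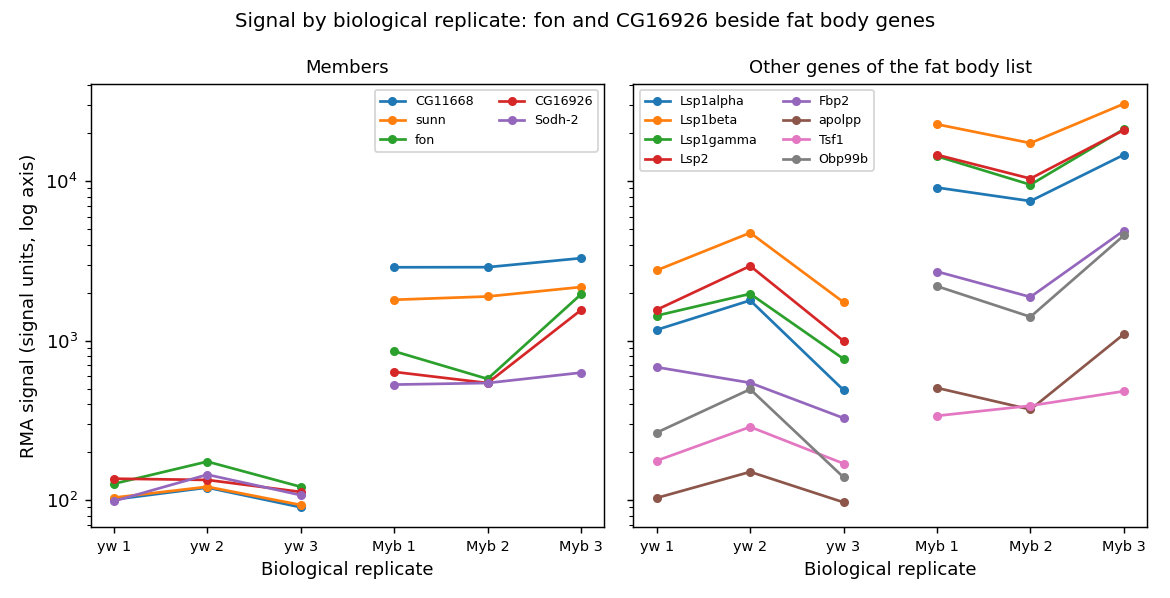
RMA signal (log axis, signal units) by biological replicate, with the 3 *yw* control replicates left and the 3 *Myb* mutant replicates right in each panel, and 1 line per gene and genotype. *fon* and *CG16926* are lowest in mutant replicate 2 and highest in replicate 3, like the storage protein genes (*Lsp2*, 10375 and 20929), whereas *sunn*, *CG11668* and *Sodh-2* differ little between mutant replicates.

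Markers of other cell types did not share one direction. Of 9 identified blood cell genes, 7 were called lower, among them the prophenoloxidase genes *PPO1* (-6.23, SE 0.14) and *PPO2* (-6.46, SE 0.31) and the hemocyte marker *Hml* (-4.12, SE 0.14), and the summed signals were 3764 to 4268 in the mutant against 41329 to 51783 in the control. With the replicate block, 3 of the 7 were called. Muscle genes had sums of 21122 to 24870 against 26931 to 30344, mostly from *Mef2* (16577 to 19311 against 20129 to 22390). Of the 4, 0 were called in limma, with 2 higher and 2 lower at an unadjusted p under 0.05. The 2 tracheal genes had sums of 9478 to 10332 against 8172 to 9134, mostly from *Gasp* (9274 to 10064 against 7607 to 8554). Of these, *btl* was called lower (-1.32, SE 0.11) but not with the replicate block (adjusted p = 0.00894 in limma). The germ line gene *vas* read 183, 179 and 278 in the mutant against 54.0, 55.2 and 55.5, and of 3 identified germ line genes 0 were called (limma; 3 higher at an unadjusted p under 0.05). No gene of the wing disc marker list could be identified, so those on the arrays were almost all not called at an adjusted p under 0.05. Their levels were not read, so the labeled tissue was not checked by its own markers. The part of these other cells in the members' values was not tested.

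Of the remaining genes with a known role, *Tob* (FBtr0074255, X) belongs to a family of antiproliferative proteins that bind the machinery removing poly(A) tails. It read 1889, 1902 and 1570.3 against 123, 219.7 and 129 (change of 3.56, SE 0.23). *Arpc3B* (FBtr0074410, X), a copy of a subunit of the actin-nucleating Arp2/3 complex, averaged 1464 against 149 (change of 3.30, SE 0.19). *rho-5* (FBtr0089855, 2L), an inactive relative of the rhomboid proteases, averaged 715 against 200.2 and had the smallest change of the set (1.84, SE 0.13). Probe sequences were not analysed here, so signal shared with close copies such as those of *GstE6*, *Arpc3B* and *RpS5b* cannot be separated.

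Many members have only an identifier in the study's sheet, among them the gene of largest change. *CG11668* (FBtr0082705, 3R) read 2884, 2888 and 3288 in the mutant against 101, 119.9 and 90.3 in the control, a 29.3-fold difference (log2 change of 4.87, SE 0.12). *CG10137* (FBtr0081248, 2L) read 2179, 2178 and 2075 against 85.7, 113 and 89.8 (4.49, SE 0.11). *CG6405* (FBtr0080366, 2L), listed as *Fam92* in RefSeq, read 1165, 1143 and 1127 against 48.1, 55.4 and 50.1 (4.49, SE 0.07). For these 3 genes the mutant replicates differed by at most 1.14-fold.

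*CG33017* (FBtr0087135, 2R) was less even, with 2071, 1814 and 1333 against 97.7, 58.9 and 97.5 (4.37, SE 0.25). *CG13694* (FBtr0078160, 2L) read 1112, 1014 and 644 against 60.7, 56.4 and 60.6 (3.92, SE 0.20). In both, mutant replicate 3 was the lowest, as it was in 20 of the 35 members, and it was the highest in 13. Among tested transcripts with a mutant mean in the members' range, it was lowest in 43.7% and highest in 48.5%. The difference was not tested. *CG6927* (FBtr0070721, X) read 1733, 1669 and 1638 against 90.8, 112 and 92.8 (4.10, SE 0.10), and *CG31776* (FBtr0077522, 2L) 776, 766 and 889 against 55.4, 52.7 and 62.4 (3.83, SE 0.10). *CG14695* (FBtr0082335, 3R) read 2915, 2643 and 2619 against 208, 169.8 and 202 (3.82, SE 0.10).

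The other unnamed genes are given by their means. *CG13148* (FBtr0087847, 2R) averaged 1200.5 against 109.6 and varied least in the control (log2 SD 0.03). *CG30383* (FBtr0088897, 2R) averaged 1672 against 162, and *CG15760* (FBtr0073810, X) 1259 against 131. *CG1909* (FBtr0089079, chromosome 4) averaged 815 against 85.4. These 4 genes had log2 changes of 3.25 to 3.45.

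*CG14982* (FBtr0073163, 3L) averaged 780.0 against 101, *CG7963* (FBtr0081847, 3R) 1321 against 173 and *CG30380* (FBtr0088881, 2R) 963 against 132, all with log2 changes between 2.87 and 2.95. The smallest changes in this group were in *CG14770* (FBtr0070213, X; 824 against 193), *CG10339* (FBtr0072288, 2R; 796 against 212) and both transcripts of *CG10508* on 3L (FBtr0078303, 963 against 201, and FBtr0078304, 909.6 against 229). They ran from 1.91 to 2.26, and the highest control replicate of each lay close under the ceiling.

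The spread between replicates is described without a comparison, because the limits on every replicate bound it. The median log2 SD of the members was 0.138 between mutant replicates and 0.207 between control replicates, and 0.0663 and 0.129 between arrays of the same replicate. Control replicate 2 was the highest of the 3 in 21 members and the lowest in 10. Among tested transcripts with a control mean in the members' range, it was highest in 40.4% and lowest in 49.9%, a difference that was not tested.

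Some transcripts missed the set narrowly. The members closest to the ceiling had their highest control replicate at 247 (*CG14770*), 247 and 241 (*CG10508*), 237 (*rho-5*) and 229 (*CG10339*), and those just outside were at 259 (*CG10508*, FBtr0273212), 266 (*CG41328*), 267 (*CG2233*), 272 (*Tg*) and 278 (*CG18327*), counting transcripts with an over 2-fold higher mutant mean. Closest to the floor, the lowest mutant replicate was 530.3 in *Sodh-2*, 542 in *CG16926*, 576 in *fon*, 584 in *RpS5b* and 623 in *RIC-3*. Just under it were *Desat2* at 487, *CG14339* at 486, *CG2930* at 482, *CG32483* at 478 and *CG40108* at 463. No gap separated the members from these neighbors in level.

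Further transcripts of the same genes, which the rule had not taken, were identified for *CG10508* and *RIC-3*. The transcript of *RIC-3* FBtr0071527 read 571, 577 and 433 against 63.8, 78.3 and 61.2 and was called (change of 2.96, SE 0.15, adjusted p = 0.000117 in limma; adjusted p = 0.000982 with the replicate block). FBtr0113370 of the same gene read 250.3, 239 and 199.7 against 66.6, 79.1 and 55.0 (1.79, SE 0.15), below the signal minimum. All 3 *RIC-3* transcripts were thus separate between genotypes, at unlike distances.

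Of *CG10508*, FBtr0273212 read 999, 991 and 899 against 175, 259 and 178 (2.26, SE 0.16, adjusted p = 0.000477 in limma) and was called, but not with the replicate block (adjusted p = 0.00395). FBtr0273213 read 1547, 1458 and 1142 against 189, 324 and 174 (2.64, SE 0.25, adjusted p = 0.00175 in limma) and missed the threshold. The transcripts of a gene share exons, and where probes lie in shared sequence they are not independent readings. Of the 4 further transcripts in all, 2 were called higher, and 1 with the replicate block.

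The member genes lay on all major arms. Of the 33 genes, 10 (30.3%) were on 2R, 6 each (18.2%) on 2L and 3R, 5 (15.2%) on X, 4 (12.1%) on 3L and 2 (6.06%) on chromosome 4. RefSeq places 20.5%, 19.1%, 24.4%, 15.8%, 19.7% and 0.575% of its protein-coding genes on those arms in the same order. Of 87 other genes called higher, 12 were on 2R, 18 on 2L, 25 on 3R, 21 on X, 10 on 3L and 1 on chromosome 4. No test of these shares was made.

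Genes beside a member were examined next, in the gene order of RefSeq, to see how far the change reached along the chromosome. The members included 2 pairs of adjacent genes, *CG14695* with *Sodh-2* and *CG33017* with *cato*. Besides members, 61 protein-coding genes adjoined a member gene, and 18 of them had a transcript that could be identified. Since every called transcript had a name, the other 43 held no call that could be placed. Of the 61, 5 were called higher and 0 lower in limma, beside 0.787% and 0.619% of all tested transcripts. With the replicate block, 1 was called higher, beside 0.258%. At an adjusted p under 0.05, 11 were higher and 1 was lower, beside 3.43% and 2.98%. Of the 18, 16 were higher and 2 lower at an unadjusted p under 0.05 (limma), a level that every identified gene passed.

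Among these 5, *CG8958* beside *Tob* (4.51, SE 0.08) and *CG4596* beside *Sodh-2* (4.46, SE 0.17) had met the signal limits themselves and were among the transcripts left out. *CG4596*, *Sodh-2* and *CG14695* therefore formed a run of 3 adjacent genes over the limits, and the next gene after *CG14695*, the mitochondrial carrier gene *Tpc1*, had a log2 change of 0.52 (SE 0.07, adjusted p = 0.00894 in limma) and was not called. *CG8958* was the neighbor called with the replicate block. On the other side of *Tob*, *Nipsnap* was not called either (0.27, SE 0.08, adjusted p = 0.106 in limma).

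The other 3 called neighbors did not meet the limits. *CG4822* beside *CG13694* read 521, 509 and 356 against 81.5, 93.6 and 114 (2.25, SE 0.19, adjusted p = 0.000946 in limma), with mutant replicate 3 lowest as in *CG13694*. *CG10863* beside *CG14982* read 3524, 3443 and 3621 against 1069.9, 1237 and 936 (1.72, SE 0.11). *GstE5* beside *GstE6* read 2211, 2316 and 2422 against 1029, 1000.2 and 1044 (1.18, SE 0.06), a smaller change from a control level well over the ceiling.

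**Figure D3:**
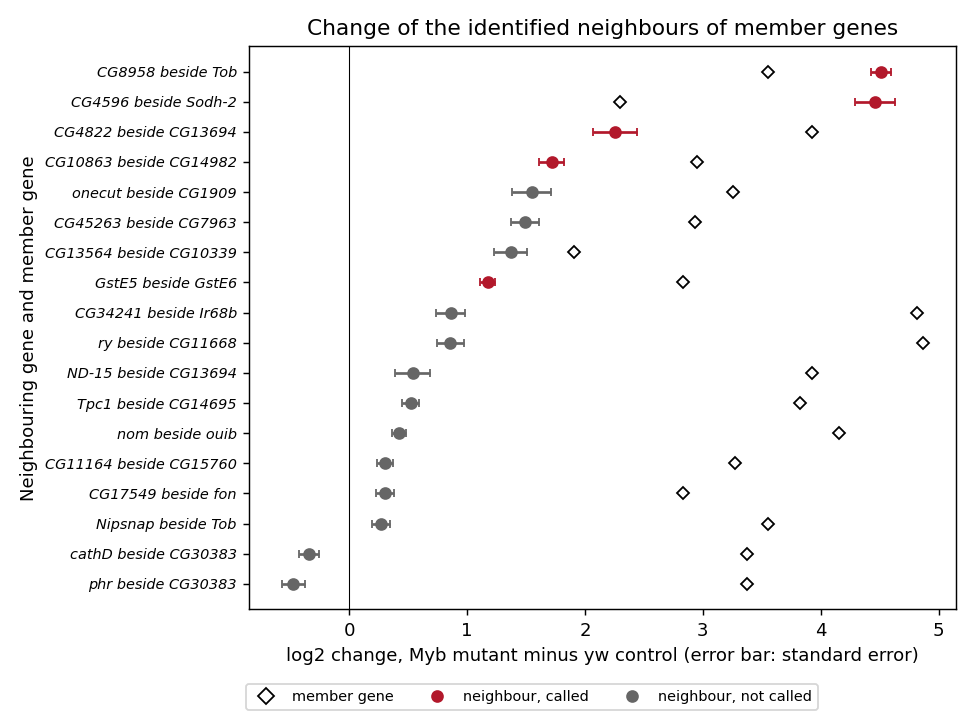
Log2 change (mutant minus control, error bars of 1 standard error) of the 18 identified genes adjacent to a member gene, in red where called and gray where not, with an open diamond for the member gene (for a gene with several member transcripts, the larger change). *CG8958* and *CG4596* lie beyond the member they adjoin (4.51 and 4.46), and most others lie well below theirs, down to *phr* (-0.47) beside *CG30383*.

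Next to *CG11668* and *Ir68b*, the members of largest change, no identified neighbor was called. *ry*, which encodes xanthine dehydrogenase and adjoins *CG11668*, had a log2 change of 0.86 (SE 0.11, adjusted p = 0.00687 in limma), and *CG34241* beside *Ir68b* one of 0.86 (SE 0.12, adjusted p = 0.00924). *onecut*, a homeodomain factor of neurons beside *CG1909*, missed the threshold (1.55, SE 0.16, adjusted p = 0.00272 in limma). *CG45263* beside *CG7963* passed it (1.49, SE 0.12, adjusted p = 0.000718) but stayed under the signal minimum. *cathD* and *phr* on the sides of *CG30383* had changes of -0.34 (SE 0.09) and -0.47 (SE 0.10).

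Other genes of the pathways named above were then counted. Genes could be identified only where the study's sheet named them, and that sheet ranks transcripts by the same comparison, so medians and counts over identified genes lean toward changed genes. Of 13 other piRNA pathway genes, 3 were called higher (*fs(1)Yb*, *krimp* and *del*) and 2 lower (*vret* and *shu*), with a median of -0.27. *fs(1)Yb*, which acts in the somatic cells of the ovary, read 5091, 4966 and 5118 against 213, 303 and 217, and *krimp*, a Tudor domain protein like *tej*, read 1926, 1455 and 1659 against 395, 390.1 and 439. *tej* thus stood beside members of its pathway that moved in both directions, and with the replicate block 1 of these 5 was called.

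The 10 other genes of meiotic chromosomes split likewise. *hdm*, a meiotic recombination gene, was called higher at 1360.0, 1394 and 1439 against 62.4 to 72.3 and was among the transcripts left out. *corolla*, a protein of the synaptonemal complex that joins paired chromosomes, and *mei-218*, needed for crossovers, were called lower (-2.39, SE 0.11, and -2.47, SE 0.17). With the replicate block, *hdm* and *corolla* were called. Of the 10 injury and stress signaling genes, 0 were called at an adjusted p under 0.001 and 5 were higher at an adjusted p under 0.05 (2 without mutant replicate 2, control replicate 1 or control replicate 3, and 3 without mutant replicate 1), among them *Ilp8* (1.98, SE 0.25), a relaxin-like hormone of damaged discs, and *Ets21C* (1.91, SE 0.30), a factor induced by Jun kinase signaling. All 10 were higher at an unadjusted p under 0.05 (limma), a level that every identified gene passed in either direction.

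**Figure D4:**
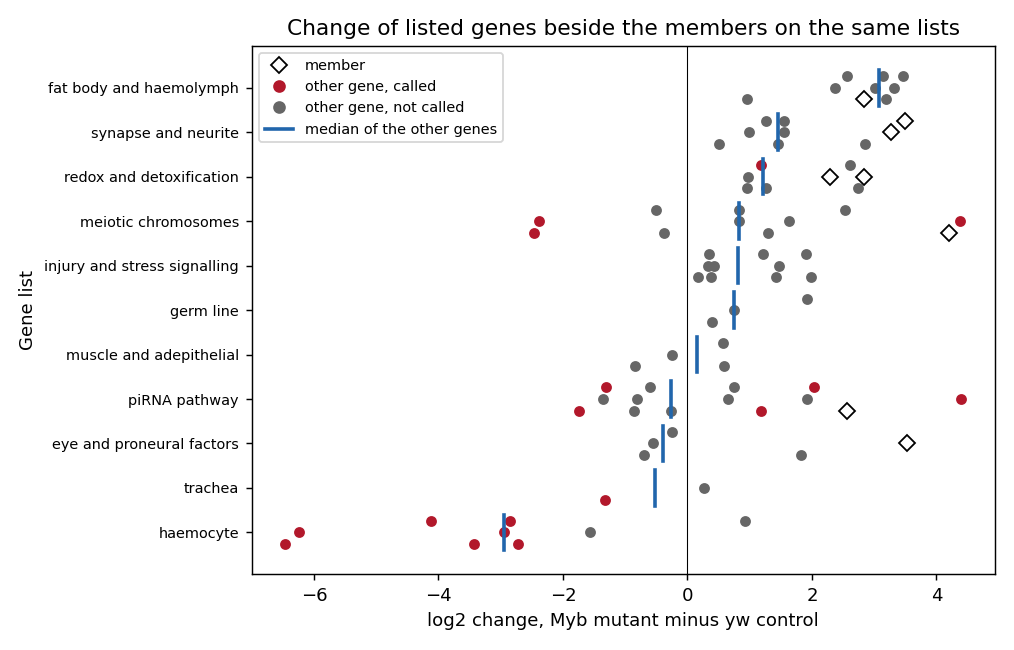
Log2 change (mutant minus control) of each identified gene by list, with open diamonds for members, red circles for other genes called, gray circles for other genes not called and a blue bar for the median of the other genes. *sunn* and *tej* lie on lists whose other genes fall on both sides of 0, whereas all identified synapse, redox and fat body genes lie above 0 and 8 of 9 blood cell genes below it.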

How the data were processed

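Wing disc RNA of *Myb* mutant and *yw* control males was hybridized as Cy3-labeled cDNA to NimbleGen arrays. The authors corrected the background, normalized by quantiles and summarized probes per transcript by median polish (RMA in ArrayStar), and the deposited values are signal intensity on a linear scale. Of 21051 transcripts, 4414 (21.0%) read 14.158 on each of the 23 arrays and were not tested.

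Technical arrays (4 per replicate, 3 for control replicate 3 per the sample titles) were averaged on the log2 scale. The 6 means were compared by limma 3.58.1 in R 4.3.3 (lmFit and eBayes, two-sided, Benjamini-Hochberg over 16637 transcripts). The call combined an adjusted p under 0.001 with a signal of at least 500, as in the study's methods. The fit was tested on simulated data. Same-numbered replicates deviated together (correlations of 0.20, 0.18 and 0.28), so the number served as a block in an alternative fit. The source of such a pairing is not given in the sources used here. The number of biological replicates, 3 per genotype, limits the precision.

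The members, gene lists and tests were chosen with earlier results of these data known. Every member was named, with replicate values for members on a list, the 10 of largest change and adjacent members, and called neighbors and transcripts were named; other names were chosen after their values were seen. Symbols came from the study's sheet of 1999 transcripts, used for identity alone, which also names all 234 called transcripts. RefSeq (Release 6) gave gene order, by start and irrespective of strand. Per gene on a list, the identified transcript of highest mean signal was used. Columns of the authors' own tests were not used.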

Additional observations from a re-analysis of the deposited data

How the results depend on the processing

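Thresholds set the size of the set. It held 23 transcripts with a control ceiling of 200, 17 with a mutant floor of 1000 and 35 to 52 without 1 replicate. The highest count was without control replicate 2. Leaving out a replicate only loosens the rule, so the set then had to contain all 35. With the replicate block, the calls fell to 61 transcripts, 12 members, 1 other transcript of a member gene, 1 neighbor and 6 listed genes. The methods' t-test on the 6 means gave 17, 2, 0, 1 and 1 in the same order. At an adjusted p under 0.05, 1066 transcripts, 12 neighbors and 53 listed genes were called. With the first technical replicate alone, 0 other transcripts of member genes were called (4 of 4 at an unadjusted p under 0.05 in limma, as with the t-test). Without 1 replicate, the calls ranged from 70 to 317 transcripts, 13 to 33 members, 0 to 3 other transcripts, 2 to 5 neighbors and 7 to 23 listed genes, with the highest values without control replicate 2. The cause of this range was not tested. Under all other alternatives the totals stayed within 1.5 times of the values given, but counts within short lists moved. Median centring, the second quantile normalization and the intensity trend with a robust prior called 2, 2 and 3 redox genes and 1, 1 and 1 synapse genes, median centring and the trend called 1 and 2 injury genes, and the trend called 1 fat body gene, and without control replicate 2 there were 2 fat body, 2 redox, 1 synapse and 1 injury gene. At an adjusted p under 0.05, 4 to 7 fat body, 4 to 7 synapse, 4 to 5 redox and 2 to 6 injury genes were higher without 1 replicate.

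Slide, scan and detection flags were not analysed here. The background level of the arrays is therefore unknown, and so is the size of a fold from a control signal near it. With 3 replicates per genotype, 1 replicate can decide a call. Genes not named by the sheet were not counted, which leaves lists incomplete for genes that changed little.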
